A study of Mus musculus with 24 samples.

Results

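The expression of 53 genes of the cell cycle and of DNA replication was examined in blood monocytes of mice, out of 53715 genes in the table of expression values. The genes were chosen for their known function, with earlier results of these data known, and found by symbol, and all 53 were in the table. Their counts beside those of all genes are therefore descriptions. Of these, 26 act at the entry into S phase or in DNA synthesis (origin licensing and helicase, replication fork, nucleotide supply, control of G1/S) and 27 act in G2 and mitosis (mitotic cyclins and kinases, chromosomal passenger and checkpoint proteins, kinetochore and spindle, chromosome structure).

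The study asked how Notch2 and Toll-like receptor 7 signaling shape the fate of blood monocytes during acute inflammation. RNA was sequenced from sorted peripheral blood monocytes in 6 groups of 4 libraries, 24 libraries in all. Classical Ly6Chi monocytes came from wt and N2ΔMy mice after Sham treatment (Vaseline) and after treatment with imiquimod (IMQ, a TLR7 agonist, given daily on the skin as Aldara cream and analysed at day 5), and Ly6Clo monocytes came from wt and N2ΔMy mice after IMQ. N2ΔMy mice carry Lyz2-Cre and a loxP-flanked Notch2, so that Cre acts in cells that express Lyz2 (the myeloid lineage) and the deletion in Ly6Chi cells is known to be partial, and wt mice were their littermate controls. All mice were C57BL/6, 8 to 10 weeks old, and all carried the Cx3cr1 gfp/+ reporter, in which GFP replaces a copy of Cx3cr1, so that all groups lack that copy. The cells were sorted by GFP, CD11b and CD115, without lineage markers or MHC-II, and split by Ly6C. Ly6Clo cells of Sham-treated mice were not analysed here, so the effect of IMQ could be compared in Ly6Chi cells alone.

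Cells that commit to division first load the MCM helicase onto replication origins with Cdc6 and Cdt1, then copy their DNA with the polymerases and the sliding clamp Pcna, and later build the cyclin B kinase, spindle and kinetochore of mitosis. Genes of the G1/S side are known targets of E2F factors, and many genes of G2 and mitosis carry a cell cycle homology region (CHR) with CCAAT boxes upstream, the sites of the MuvB complexes and of NF-Y. Classical monocytes arise from dividing progenitors of the bone marrow, enter the blood and can turn into Ly6Clo monocytes, and circulating monocytes are regarded as mostly out of cycle.

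The sequences upstream of 6 of these genes are shown as examples of the motifs searched, 3 from each side, chosen among genes that hold the motif of their side. They cover bases 150 to 16 before the RefSeq start, 135 bases each, on build GRCm38.p6, 5′ to 3′ on the strand of the gene. In Mcm5 at chr8:75109359-75109493 (+), Rrm1 at chr7:102441545-102441679 (+) and Uhrf1 at chr17:56303187-56303321 (+), capitals mark the E2F consensus, searched on both strands as TTCCCGC, in the form TTCGCGC, in the form TTGCCGC and in the form TTGGCGC.
Mcm5: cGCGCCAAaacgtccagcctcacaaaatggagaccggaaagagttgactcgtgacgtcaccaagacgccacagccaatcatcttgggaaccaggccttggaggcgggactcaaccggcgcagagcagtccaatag
Rrm1: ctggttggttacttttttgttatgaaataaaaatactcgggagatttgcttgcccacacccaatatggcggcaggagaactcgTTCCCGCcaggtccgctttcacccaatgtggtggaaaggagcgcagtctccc
Uhrf1: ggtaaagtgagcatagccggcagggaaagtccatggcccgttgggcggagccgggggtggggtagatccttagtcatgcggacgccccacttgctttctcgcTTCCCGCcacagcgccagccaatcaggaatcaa
In Top2a at chr11:99024205-99024339 (-), Mki67 at chr7:135716395-135716529 (-) and Ube2c at chr2:164769779-164769913 (+), capitals mark the CHR (TTTGAA, on either strand) and the CCAAT box (CCAAT, on either strand). Each stretch has capitals for the motifs of its own side alone. The stretches of Mcm5, Rrm1 and Uhrf1 also hold CCAAT boxes and that of Mki67 also an E2F match (TTGGCGC), which are left in lower case.
Top2a: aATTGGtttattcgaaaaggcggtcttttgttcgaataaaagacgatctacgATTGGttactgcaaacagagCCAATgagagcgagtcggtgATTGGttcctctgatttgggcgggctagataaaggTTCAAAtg
Mki67: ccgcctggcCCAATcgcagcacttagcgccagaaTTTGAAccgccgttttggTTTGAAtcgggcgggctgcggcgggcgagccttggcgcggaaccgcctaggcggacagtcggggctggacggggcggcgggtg
Ube2c: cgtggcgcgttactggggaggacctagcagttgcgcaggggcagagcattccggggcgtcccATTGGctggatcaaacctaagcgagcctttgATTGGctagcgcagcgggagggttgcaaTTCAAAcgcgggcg
The last bases shown for Ube2c lie within its first exon in the annotation of the deposited table, whose start precedes the RefSeq start. Windows of 300 bases around the start were at hand for 44 of the 53 genes, 22 on each side, and for 15507 genes in all. A CHR was present in 17 of 22 windows of G2 and mitosis genes (77.3%), in 3 of 22 windows of G1/S genes (13.6%) and in 15.3% of all windows. A CCAAT box was present in 19 windows (86.4%) of the G2 and mitosis genes, in 13 (59.1%) of the G1/S genes and in 38.6% of all. The E2F consensus showed the opposite order, with 12 of 22 G1/S windows (54.5%), 5 of 22 windows of G2 and mitosis genes (22.7%) and 12.9% of all windows. The letters TTGGCGC can share bases with a CCAAT box on the other strand. These matches describe the sequence and were not tied to binding in these cells. Aurkb, Ccna2, Ccne2, Gins2, Kif20a, Mcm4, Pole, Stmn1 and Tpx2 had no window.

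The values were the authors' normalized counts, read counts divided by a size factor for each library and rounded to whole numbers, and they summed to between 13273508 and 14651770 per library. Notch2, the targeted gene, read between 12656 and 20005 in the wt libraries and between 7240 and 11518 in the N2ΔMy libraries, so that all 24 libraries matched their labelled genotype. Reads over the whole gene were counted, and N2ΔMy cells kept Notch2 RNA. All 10 monocyte markers, such as Csf1r and Cx3cr1, were detected in every group. The library numbers in the labels fall into a lower run for libraries 1 and 2 of each group and a higher run for libraries 3 and 4. These runs are called the first and the second library series here, the labels do not say what they are, and effects within each series are given for some of the genes described. A gene was tested if it reached 50 normalized counts in at least 1 library, and called if the adjusted p from limma (Benjamini-Hochberg over 11230 genes) was at most 0.05 and the difference at least 0.6 on log2(normalized count + 1). Of the 53 genes, 40 passed this filter. The other 13 (Prim1, Rrm2, Tk1, Ccne2, Chek1, Ccnb1, Cdk1, Plk1, Cdca5, Bub1, Kif11, Nusap1 and Prc1) stayed below 50 in all 24 libraries and were not tested.

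**Figure D1:**
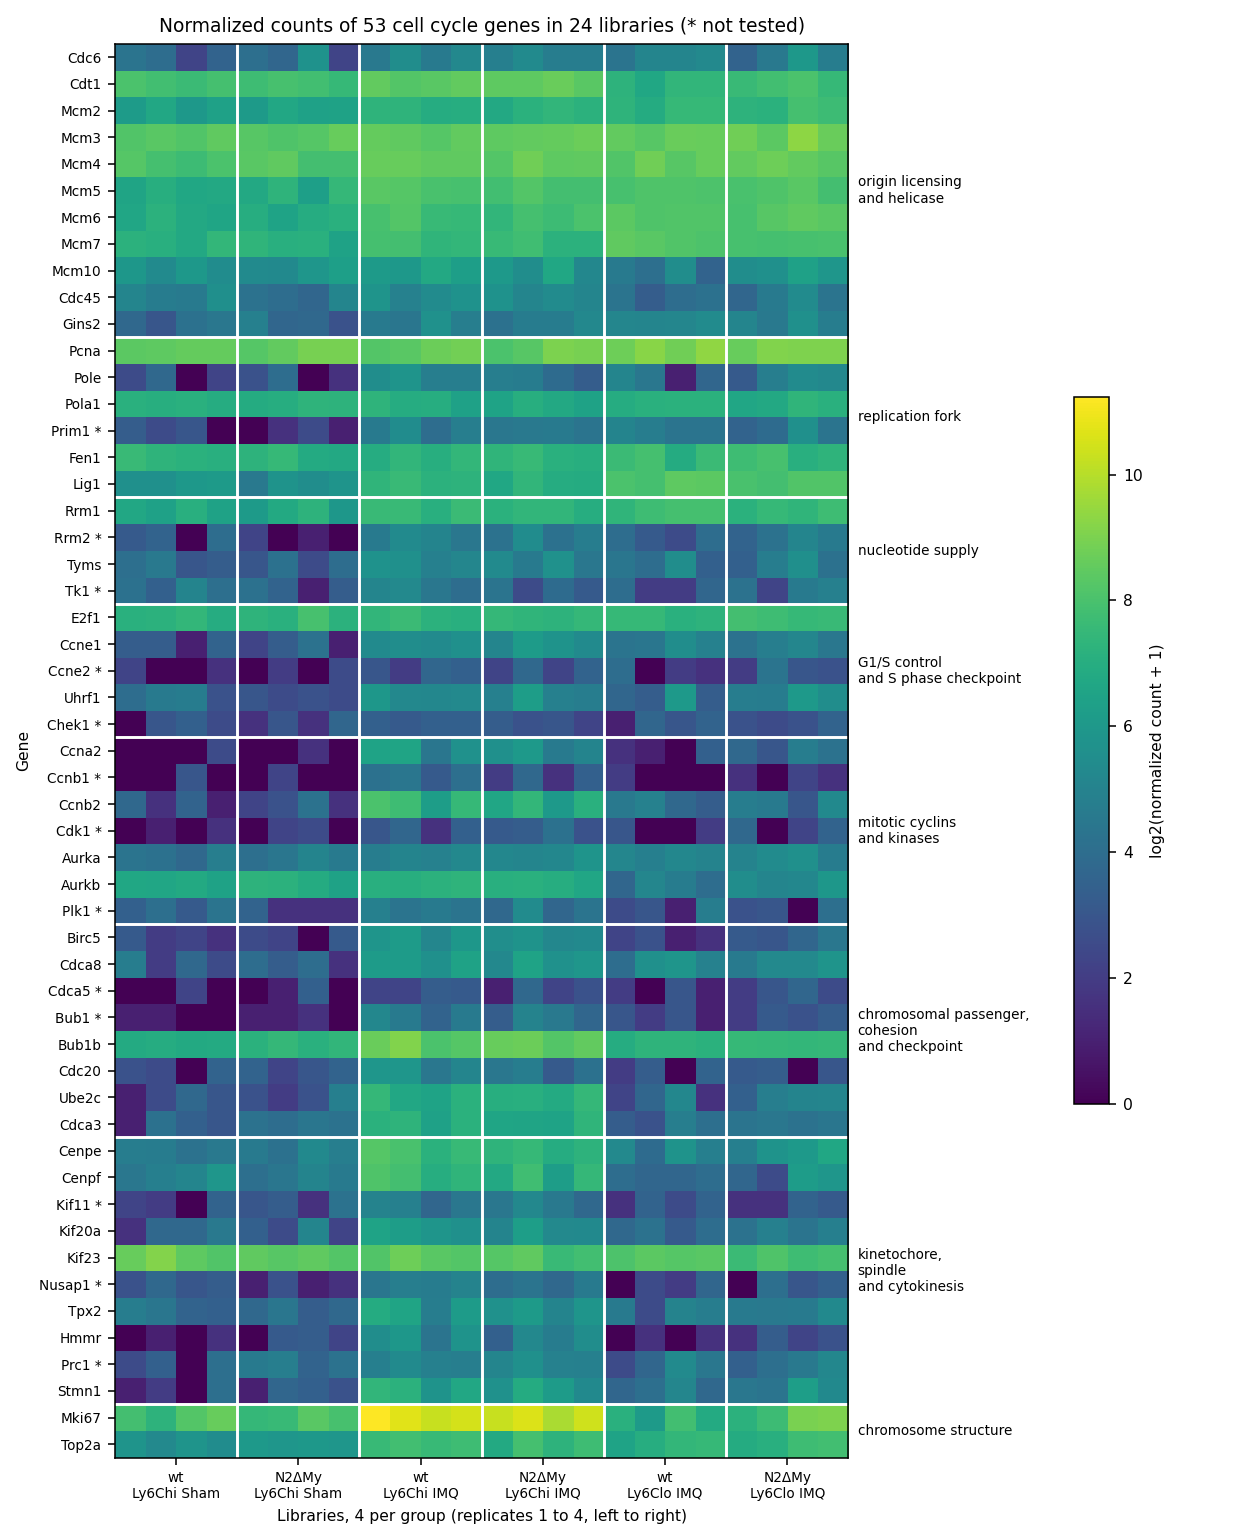
Level of each of the 53 genes (rows, grouped by role) in each of the 24 libraries (columns, 4 per group), as log2(normalized count + 1) on the color scale, with an asterisk at the 13 genes that were not tested. Most of the lower rows, which hold the genes of G2 and mitosis, are brighter in the 8 Ly6Chi libraries after IMQ than after Sham or in Ly6Clo cells, and the upper rows of the MCM helicase remain bright in Ly6Clo cells.

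Mki67, the proliferation marker Ki-67 that coats mitotic chromosomes, was highest in Ly6Chi cells after IMQ. It read 232, 150, 297 and 389 in wt Ly6Chi cells after Sham and 2396, 1680, 1258 and 1461 after IMQ, and 178, 189, 325 and 247 in N2ΔMy Ly6Chi cells after Sham and 1260, 1609, 900 and 1366 after IMQ. In Ly6Clo cells after IMQ it read 140, 69, 227 and 117 in wt and 146, 209, 496 and 532 in N2ΔMy mice. Every Ly6Chi library after IMQ lay above every other library, and the N2ΔMy Ly6Clo libraries 3 and 4 lay above all Sham libraries. Group means were 267 ± 101 (SD, n = 4) in wt and 235 ± 67.3 in N2ΔMy Ly6Chi cells after Sham, 1699 ± 496 and 1284 ± 295 after IMQ, and 138 ± 66.2 and 346 ± 196 in Ly6Clo cells.

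Top2a, the topoisomerase that untangles chromosomes in S phase and mitosis, followed another course. It read 55, 38, 55 and 43 in wt and 67, 58, 63 and 59 in N2ΔMy Ly6Chi cells after Sham, and 187, 225, 189 and 215 in wt and 113, 240, 153 and 216 in N2ΔMy cells after IMQ. Ly6Clo cells read 90, 126, 170 and 180 in wt and 120, 136, 211 and 223 in N2ΔMy mice, so that all 8 Ly6Clo libraries lay above all 8 Sham libraries. Ccnb2, a cyclin B that drives entry into mitosis, read 13, 2, 11 and 1 in wt and 4, 6, 18 and 2 in N2ΔMy Ly6Chi cells after Sham. After IMQ it read 260, 216, 74 and 185 in wt and 99, 173, 65 and 138 in N2ΔMy Ly6Chi cells, but 22, 30, 13 and 9 in wt and 26, 24, 7 and 39 in N2ΔMy Ly6Clo cells. Its 8 Ly6Chi libraries after IMQ lay above all Sham and all Ly6Clo libraries.

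Pcna, the sliding clamp of the replication fork that also serves in DNA repair, did not share this pattern. It read 333, 346, 376 and 385 in wt and 309, 372, 483 and 480 in N2ΔMy Ly6Chi cells after Sham. After IMQ it read 301, 327, 417 and 458 in wt and 264, 316, 521 and 487 in N2ΔMy Ly6Chi cells, and 425, 606, 445 and 665 in wt and 397, 542, 533 and 533 in N2ΔMy Ly6Clo cells. Sham and IMQ libraries overlapped in both genotypes, and in Ly6Chi cells libraries 3 and 4 lay above libraries 1 and 2 in all 4 groups. Per kilobase of the deposited gene length, Pcna had the highest mean level of the 53 genes in 5 groups, between 150.0 and 223.0 normalized counts per kilobase. This length is given for the gene and not for a transcript, and the order between genes depends on it. In wt Ly6Chi cells after IMQ Mki67 was highest with 168.8 per kilobase, ahead of Pcna with 156.6.

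**Figure D2:**
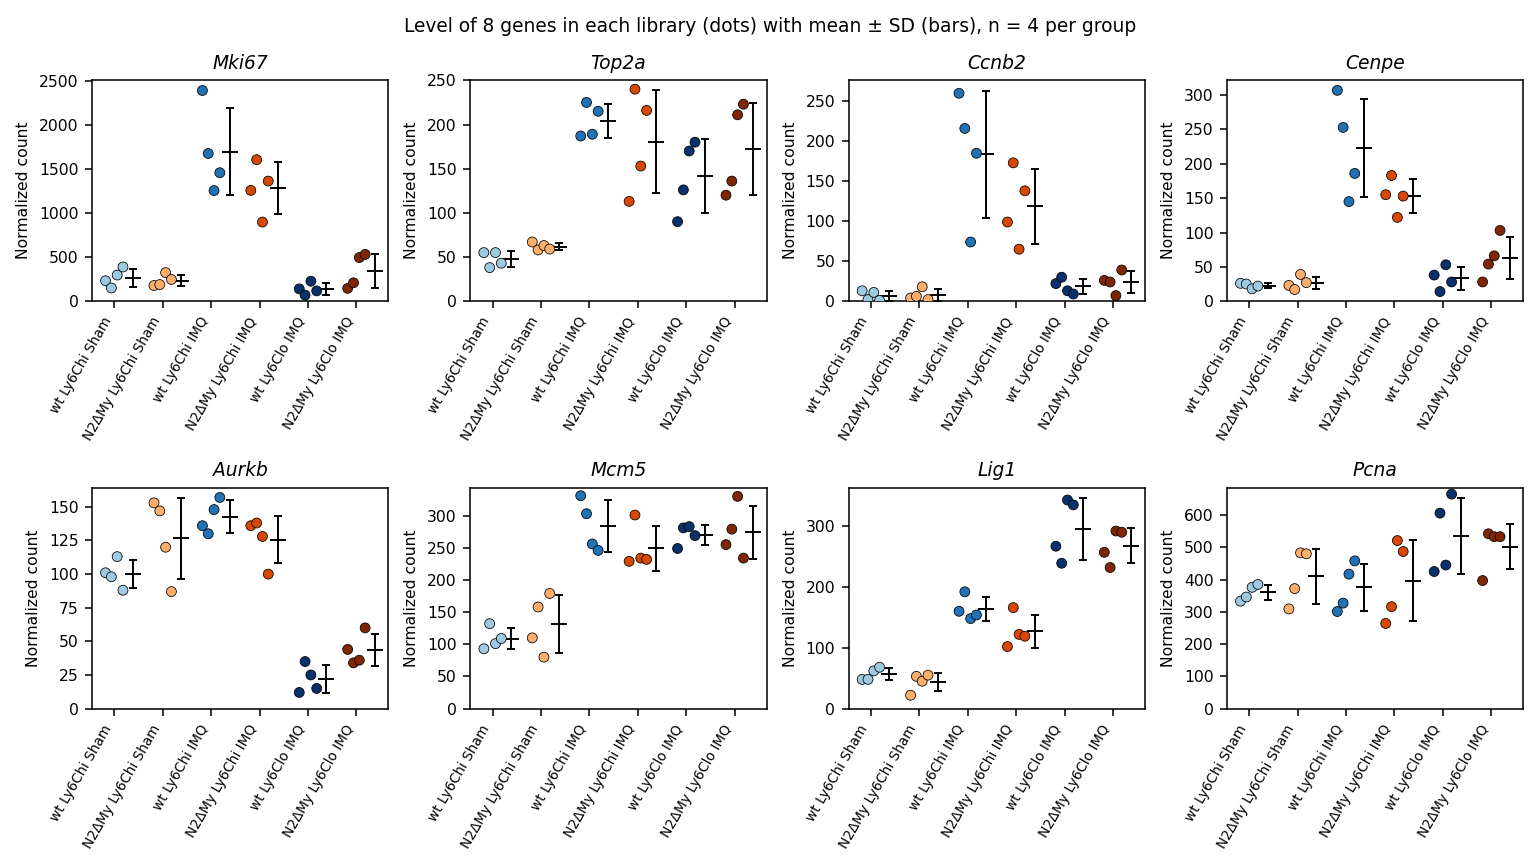
Normalized count (linear axes from 0) of 8 genes in each library (dots) with the group mean and SD (bars, n = 4) in the 6 groups. Mki67, Ccnb2 and Cenpe are high in Ly6Chi cells after IMQ and low in the Sham and Ly6Clo groups, Aurkb is low in Ly6Clo cells alone, Mcm5 stays near and Lig1 lies above its Ly6Chi IMQ level in Ly6Clo cells, and the Sham and IMQ libraries of Pcna overlap in Ly6Chi cells of both genotypes.

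A large share of these genes was higher after IMQ than after Sham in Ly6Chi cells of both genotypes. In wt mice 24 of the 40 genes tested rose and 0 fell, where 4.43% of all genes tested rose and 5.07% fell. In N2ΔMy mice 22 rose and 0 fell, where 4.15% of all genes rose and 4.55% fell. Of the 19 tested genes of G2 and mitosis 16 rose in wt and 14 in N2ΔMy mice, and of the 21 tested G1/S genes 8 rose in either genotype. Each library series is a part of the libraries that gave these calls, so the signs within it are no separate test. All 24 and all 22 of these genes moved the same way within either series. For 22 and 21 of them (91.7% and 95.5%) the IMQ and Sham libraries did not overlap, as for 95.7% and 96.3% of all genes called. Among all genes tested the libraries did not overlap for 21.5% in wt and 19.5% in N2ΔMy mice. In these bulk samples a larger share of cycling cells and more RNA of these genes per cell cannot be told apart.

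Because 15 of the tested genes reached 50 counts only in Ly6Chi libraries after IMQ, they could pass the filter only by being higher there, and the counts above are not independent of the filter. These were Cdc45, Gins2, Pole, Tyms, Ccne1, Ccna2, Ccnb2, Aurka, Birc5, Cdc20, Ube2c, Cdca3, Kif20a, Tpx2 and Hmmr, and their p-values against the Ly6Chi IMQ libraries carry this limit. In a fit with no filter on low values, which they enter without it, 11 of the 12 called among them in wt mice were called (all but Tyms) and 7 of 9 in N2ΔMy mice (all but Kif20a and Tyms). Among the other 25 genes tested, 12 rose in wt and 13 in N2ΔMy mice, and 0 fell. The filter touched the sides unequally, since 10 of the 19 tested genes of G2 and mitosis and 5 of the 21 G1/S genes passed it in this way. Among the remaining genes, 7 of 9 rose on the side of G2 and mitosis in either genotype, and 5 of 16 in wt and 6 of 16 in N2ΔMy mice on the G1/S side. In that fit all 53 genes had a value, and the difference was above 0 for 50 in wt (94.3%, beside 53.6% of all genes) and for 49 in N2ΔMy mice (92.5%, beside 51.9%). The median difference over the 53 genes was 1.65 in wt and 1.47 in N2ΔMy mice on the log2 scale, beside 0.050 and 0.023 over all genes. It was 2.62 in wt and 2.23 in N2ΔMy mice over the 27 genes of G2 and mitosis, and 0.91 and 0.78 over the 26 G1/S genes. Blocking on the replicate number, Cdc6 and Uhrf1 were also called in wt (adjusted p = 0.0323 and 0.028), and in N2ΔMy mice Pole, Rrm1 and Hmmr were gained (adjusted p = 0.0398, 0.0478 and 0.00909). With the block 5.82% of all genes rose and 6.03% fell in wt, and 4.76% rose and 5.13% fell in N2ΔMy mice.

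**Figure D3:**
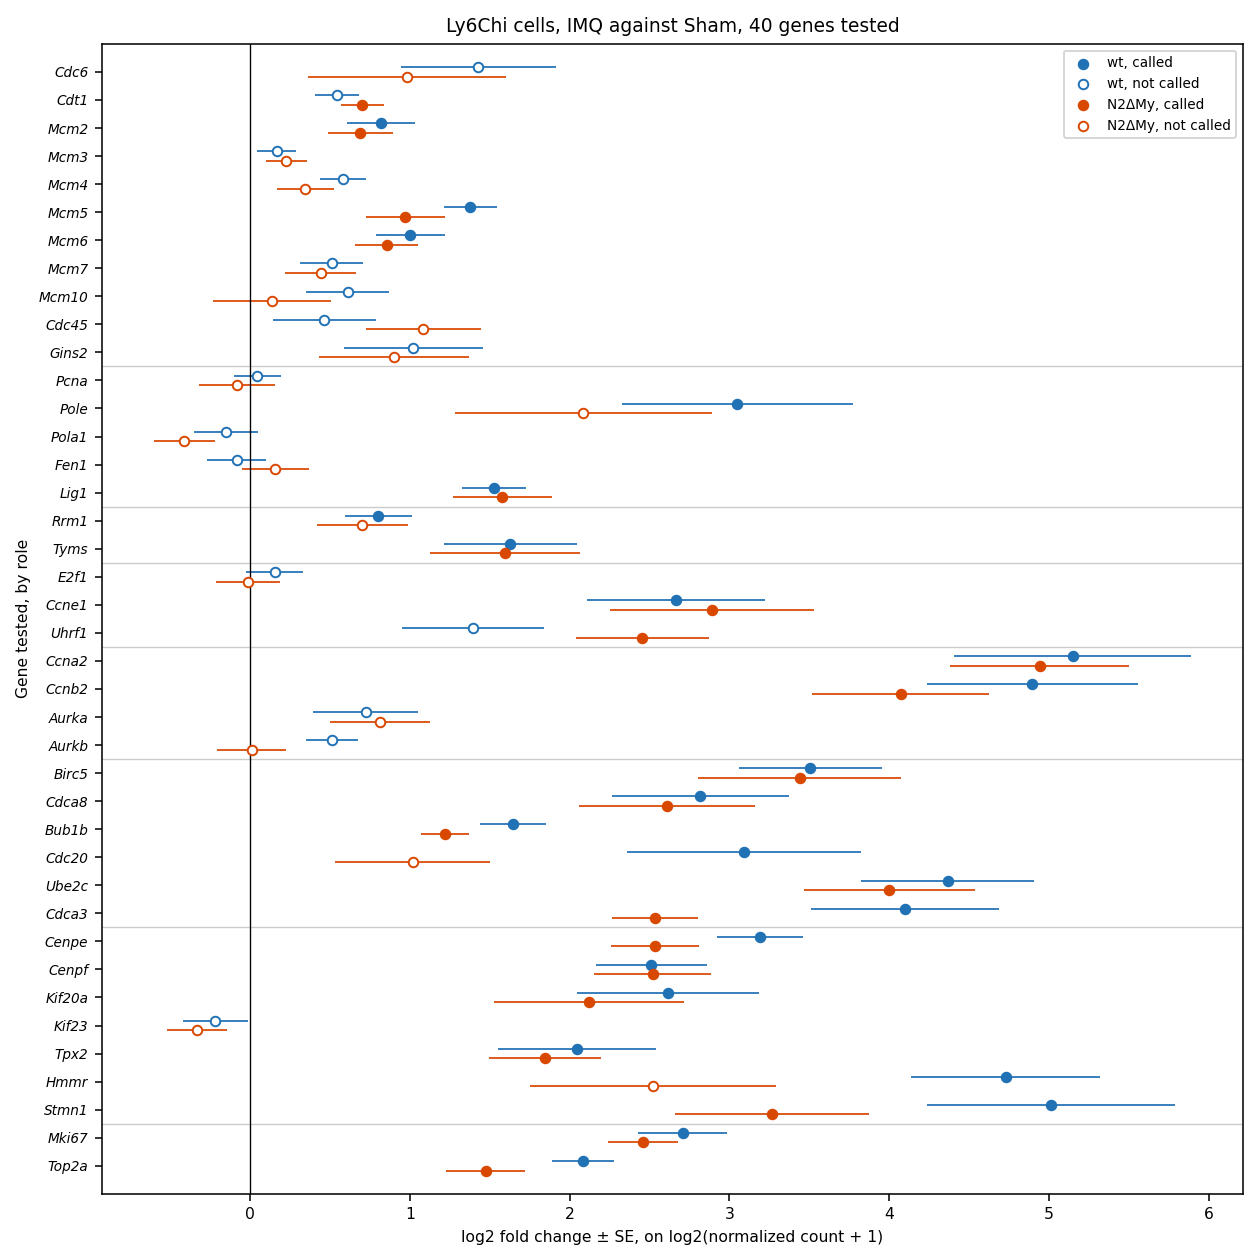
Difference between IMQ and Sham in Ly6Chi cells (log2 fold change ± SE on log2(normalized count + 1), 4 against 4 libraries) of the 40 genes tested, in wt (blue) and N2ΔMy mice (red), with filled points for genes called. No called gene lies left of 0, and the genes of the lower rows, from Ccna2 to Top2a, reach the largest values, up to 5.15 for Ccna2 in wt mice.

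Among the 11 genes of origin licensing and helicase, Mcm2, Mcm5 and Mcm6, all subunits of the MCM2-7 helicase, rose in wt mice, and these and Cdt1 rose in N2ΔMy mice. Mcm5 read 93, 132, 101 and 109 in wt cells after Sham and 331, 303, 256 and 246 after IMQ. All 4 IMQ libraries lay above all Sham libraries, and the difference was 1.38 ± 0.17 (log2 fold change ± SE, adjusted p = 0.000455), with 1.51 in the first library series and 1.25 in the second. In N2ΔMy mice Mcm5 read 110, 158, 80 and 179 after Sham and 229, 301, 234 and 232 after IMQ, again without overlap, and rose by 0.97 ± 0.25 (adjusted p = 0.0268). This call was lost without N2ΔMy Sham library 1 or without IMQ library 2, 3 or 4 (adjusted p from 0.0528 to 0.0749).

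Cdt1, which loads the MCM helicase together with Cdc6, read 216, 248, 227 and 184 in N2ΔMy cells after Sham and 345, 352, 400 and 325 after IMQ. The 4 IMQ libraries lay above all Sham libraries, and Cdt1 rose by 0.70 ± 0.13 (adjusted p = 0.00632), with 0.59 in the first library series and 0.82 in the second. In wt cells Cdt1 read 261, 229, 201 and 242 after Sham and 372, 294, 325 and 371 after IMQ, a difference of 0.54 ± 0.14 that stayed below the limit of 0.6 (adjusted p = 0.0208). Mcm2 showed the smallest called change in N2ΔMy mice, 0.69 ± 0.20 (adjusted p = 0.0483), and in wt mice it rose by 0.82 ± 0.21 (adjusted p = 0.0242). Its call was lost without any of 7 libraries in N2ΔMy mice, all but IMQ library 1 (adjusted p up to 0.125), and without Sham library 1 or 3 or IMQ library 1 or 2 in wt mice (adjusted p up to 0.0782). Mcm6 rose by 1.00 ± 0.22 in wt and 0.85 ± 0.20 in N2ΔMy mice. The other subunits were not called in either genotype: Mcm3 differed by 0.17 and 0.23, Mcm4 by 0.58 and 0.34 and Mcm7 by 0.51 and 0.44 in wt and N2ΔMy mice. Cdc6, Mcm10, Cdc45 and Gins2, which activate the helicase or help to load it, were not called, with differences between 0.14 (Mcm10 in N2ΔMy mice) and 1.43 (Cdc6 in wt mice).

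At the replication fork, Lig1, the ligase that joins Okazaki fragments, rose in both genotypes. It read 48, 48, 62 and 68 in wt cells after Sham and 160, 192, 148 and 154 after IMQ, and 22, 53, 45 and 55 after Sham and 102, 166, 122 and 119 after IMQ in N2ΔMy cells. IMQ and Sham libraries did not overlap in either genotype, and Lig1 rose by 1.53 ± 0.20 in wt (adjusted p = 0.000643) and by 1.58 ± 0.31 in N2ΔMy mice (adjusted p = 0.00778). The change in wt mice was 1.85 in the first library series and 1.21 in the second. Pole, the catalytic subunit of the leading strand polymerase, rose by 3.05 ± 0.72 in wt mice (adjusted p = 0.0164), and this call was lost without IMQ library 2 (adjusted p = 0.0555). Pcna differed by 0.043 ± 0.15 in wt and -0.083 ± 0.24 in N2ΔMy mice (adjusted p = 0.885 and 0.869). The lagging strand genes Pola1 and Fen1, the primase polymerase and the flap endonuclease, differed by -0.15 and -0.084 in wt mice and by -0.41 and 0.16 in N2ΔMy mice and were not called.

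In nucleotide supply, Tyms, which makes thymidylate, read 16, 22, 7 and 9 in wt cells after Sham and 52, 49, 29 and 35 after IMQ, and 7, 17, 5 and 15 after Sham and 40, 24, 50 and 21 after IMQ in N2ΔMy cells. The IMQ libraries lay above the Sham libraries in both genotypes. Tyms rose by 1.63 ± 0.41 in wt (adjusted p = 0.023) and by 1.59 ± 0.47 in N2ΔMy mice (adjusted p = 0.0497), with 1.38 in the first library series and 1.88 in the second in wt mice. The call in N2ΔMy mice was lost with the replicate block (adjusted p = 0.0642) and without any library except Sham library 2 (adjusted p up to 0.127), and the call in wt mice without Sham library 4 or IMQ library 1 or 2 (adjusted p up to 0.0717). Rrm1, the large subunit of ribonucleotide reductase, had the smallest called change in wt mice, 0.80 ± 0.21 (adjusted p = 0.025). Its groups overlapped, and its call was lost without any of 6 libraries (adjusted p up to 0.0762), that is, all but Sham library 3 and IMQ library 3.

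In the control of G1/S, Ccne1 rose while E2f1 was not called. Ccne1, the cyclin E that starts S phase, read 9, 9, 1 and 11 in wt cells after Sham and 40, 45, 41 and 48 after IMQ. Sham and IMQ libraries were far apart, and Ccne1 rose by 2.67 ± 0.56 in wt (adjusted p = 0.00883) and by 2.89 ± 0.64 in N2ΔMy mice (adjusted p = 0.0136), with 2.12 in the first library series and 3.21 in the second in wt mice. Uhrf1, which carries DNA methylation through replication, read 7, 5, 6 and 5 in N2ΔMy cells after Sham and 29, 74, 29 and 26 after IMQ. It rose by 2.46 ± 0.41 without overlap (adjusted p = 0.00354), with 2.77 in the first library series and 2.13 in the second. In wt mice Uhrf1 differed by 1.40 ± 0.44 (adjusted p = 0.0574). E2f1, a transcription factor of S phase genes, differed by 0.15 in wt and -0.014 in N2ΔMy mice.

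Of the mitotic cyclins and kinases, the cyclins rose and the Aurora kinases were not called. Ccna2, the cyclin A of S phase and G2, read 0, 0, 0 and 5 in wt cells after Sham and 91, 94, 20 and 51 after IMQ, and 0, 0, 2 and 0 after Sham and 48, 65, 24 and 32 after IMQ in N2ΔMy cells. Most Sham libraries held no Ccna2 while every IMQ library did. The difference was 5.15 ± 0.74 in wt (adjusted p = 0.0011) and 4.94 ± 0.56 in N2ΔMy mice (adjusted p = 0.000396), and in wt mice it was 6.55 in the first library series and 3.75 in the second. With so many values at 0 its size depends on the pseudocount. At the pseudocount of 1 it was the largest of the 40 genes in both genotypes, and with a pseudocount of 8 it was 2.82 and 2.50, behind 5 genes led by Ccnb2 in wt and behind Ube2c and Ccnb2 in N2ΔMy mice. Ccnb2 rose by 4.89 ± 0.66 in wt (adjusted p = 0.000764, 3.67 with a pseudocount of 8) and by 4.07 ± 0.55 in N2ΔMy mice (adjusted p = 0.00109), with 5.20 in the first library series and 4.59 in the second in wt mice. Aurka and Aurkb differed by 0.72 and 0.51 in wt and by 0.81 and 0.008 in N2ΔMy mice.

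All 6 tested genes grouped as chromosomal passenger, cohesion and checkpoint genes rose in wt mice, and 5 of 6 in N2ΔMy mice. Aurkb, also of the chromosomal passenger complex, was counted with the kinases and not called in either genotype. Ube2c, the ubiquitin-conjugating enzyme of the anaphase-promoting complex, read 1, 5, 13 and 7 in wt cells after Sham and 175, 104, 91 and 142 after IMQ. No Sham library came near the IMQ libraries, and Ube2c rose by 4.37 ± 0.54 (adjusted p = 0.000512, 3.25 with a pseudocount of 8), with 5.29 in the first library series and 3.44 in the second. Cdca3, a trigger of mitotic entry, read 18, 15, 20 and 18 in N2ΔMy cells after Sham and 96, 94, 89 and 163 after IMQ. It rose by 2.53 ± 0.27 in N2ΔMy (adjusted p = 0.000311) and by 4.10 ± 0.59 in wt mice (adjusted p = 0.0011), with 2.46 in the first library series and 2.60 in the second in N2ΔMy mice. Birc5 (survivin), a subunit of the passenger complex, rose by 3.51 ± 0.45 and 3.44 ± 0.64 in wt and N2ΔMy mice, Cdca8 (borealin) by 2.82 ± 0.56 and 2.61 ± 0.55, and the checkpoint kinase Bub1b by 1.65 ± 0.21 and 1.22 ± 0.15. Cdc20, the activator of the anaphase-promoting complex, rose by 3.09 ± 0.73 in wt mice (adjusted p = 0.0163, and 0.0545 without IMQ library 2) and differed by 1.02 ± 0.49 in N2ΔMy mice (adjusted p = 0.215).

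Of the 7 tested genes of kinetochore, spindle and cytokinesis, 6 rose in wt and 5 in N2ΔMy mice. Cenpe, a kinesin of the kinetochore, read 26, 25, 18 and 22 in wt cells after Sham and 307, 253, 145 and 186 after IMQ, and 23, 17, 39 and 27 after Sham and 155, 183, 122 and 153 after IMQ in N2ΔMy cells. The groups were well apart in both genotypes. Cenpe rose by 3.19 ± 0.27, 9.13-fold, in wt (adjusted p = 8.33e-05) and by 2.53 ± 0.28, 5.79-fold, in N2ΔMy mice (adjusted p = 0.000335), with 3.40 in the first library series and 2.98 in the second in wt mice. Cenpf, another kinetochore protein, rose by 2.51 ± 0.35 and 2.52 ± 0.37, the kinesin Kif20a by 2.62 ± 0.57 and 2.12 ± 0.59, the spindle factor Tpx2 by 2.05 ± 0.49 and 1.85 ± 0.35, and the microtubule regulator Stmn1 by 5.01 ± 0.77 and 3.27 ± 0.61 in wt and N2ΔMy mice. Hmmr, which organizes spindle poles, rose by 4.73 ± 0.59 in wt mice and differed by 2.52 ± 0.77 in N2ΔMy mice (adjusted p = 0.0572). Kif23, a kinesin of the midbody, was the exception, with a difference of -0.22 in wt and -0.34 in N2ΔMy mice.

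Both genes of chromosome structure rose in both genotypes. Top2a rose by 2.08 ± 0.19, 4.24-fold, in wt (adjusted p = 0.00012) and by 1.47 ± 0.25 in N2ΔMy mice (adjusted p = 0.0033), with 2.14 in the first library series and 2.03 in the second in wt mice. Mki67 rose by 2.71 ± 0.28 in wt (adjusted p = 0.000188) and by 2.46 ± 0.22, 5.49-fold, in N2ΔMy mice (adjusted p = 0.000142), with 2.95 in the first library series and 1.97 in the second in N2ΔMy mice.

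The 13 genes below the filter were not tested in the reported fit and are given by their small counts. In the fit with no filter, which holds them, 25 of the 53 genes were called in wt and 23 in N2ΔMy mice, all higher. Of all genes, 4.55% and 4.09% were called there. In wt Ly6Chi cells every IMQ library lay above every Sham library for 7 of the 13 (Prim1, Rrm2, Ccnb1, Bub1, Kif11, Nusap1 and Prc1), and in N2ΔMy cells for 7 (Prim1, Rrm2, Cdk1, Plk1, Bub1, Nusap1 and Prc1). For Tk1, Ccne2, Chek1 and Cdca5 the groups overlapped in both genotypes, and for 0 of the 13 every IMQ library lay below every Sham library. The highest value of these genes over the 24 libraries lay between 12 and 49. Among all 3975 genes in that range, every IMQ library lay above every Sham library for 4.43% in wt and 3.37% in N2ΔMy mice. Every IMQ library lay below every Sham library for 2.31% of them in wt and 2.79% in N2ΔMy mice. The 0 of 13 is near these shares. Ccnb1, the main cyclin B, and its partner kinase Cdk1 are given as examples, chosen after their values were seen. Ccnb1 read 0, 0, 7 and 0 in wt Ly6Chi cells after Sham and 17, 20, 8 and 16 after IMQ, and 0, 4, 0 and 0 after Sham and 3, 13, 2 and 10 after IMQ in N2ΔMy cells, where the groups overlapped. Cdk1 read 0, 1, 0 and 2 in wt cells after Sham and 7, 12, 2 and 10 after IMQ, with groups that met at 2, and 0, 4, 5 and 0 after Sham and 8, 9, 17 and 6 after IMQ in N2ΔMy cells, without overlap.

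Markers of other cell types moved with IMQ in the same Ly6Chi libraries. The summed level of 7 myeloid progenitor markers was between 47 and 115 after Sham and between 219 and 301 after IMQ, most of it from the granule protease gene Prtn3 (21 to 58 after Sham, 150 to 234 after IMQ), while Kit and Ms4a3 read at most 9 and 3 in all Ly6Chi libraries. The granule genes Elane (0 to 3 after Sham, 8 to 28 after IMQ) and Mpo (0 to 9 after Sham, 9 to 36 after IMQ) were also higher after IMQ, Ctsg overlapped, and the stem and progenitor cell gene Cd34 was lower (11 to 34 after Sham, 1 to 9 after IMQ). The 11 neutrophil markers summed to between 6079 and 7154 after Sham and between 7269 and 12392 after IMQ. S100a8 went from at most 12 to between 402 and 3443 and Mmp8 from between 706 and 1342 to between 1936 and 3660. Csf3r, the most abundant of these markers, went from between 4773 and 6278 to between 3783 and 4862, and Ly6g, which defines neutrophils, read at most 1 in all 24 libraries. The 8 dendritic cell markers moved the other way, from sums of 1222 to 2216 after Sham to 402 to 731 after IMQ. The 8 macrophage markers summed to between 3740 and 4538 after Sham and between 2298 and 3106 after IMQ in wt cells, and overlapped in N2ΔMy cells (3431 to 5005 after Sham, 3367 to 4293 after IMQ). Siglec1 of this list went from between 1199 and 2693 to between 85 and 351, and Adgre1 from between 1843 and 2382 to between 2141 and 4054. Cd3e of T cells was at 0 in all libraries. In these 16 libraries the sums of erythroid markers (0 to 1565), platelet markers (21 to 142), B and plasma cell markers (71 to 165) and T and NK cell markers (0 to 64) overlapped between Sham and IMQ, except for the platelet sums in N2ΔMy mice (27 to 53 after Sham, 74 to 134 after IMQ). The part of these cells in the change of the cell cycle genes was not tested.

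After IMQ, Ly6Clo cells were compared with Ly6Chi cells of the same genotype. This comparison shares the Ly6Chi IMQ libraries with the comparison above, so that the values of both are not independent. Most of the genes called lower in Ly6Clo cells were genes of G2 and mitosis. In wt mice 18 of 40 genes fell and 2 rose (Mcm7 and Lig1), where 12.7% of all genes tested fell and 11.9% rose. In N2ΔMy mice 11 fell and 1 rose (Lig1), where 8.38% of all genes fell and 9.01% rose. On the side of G2 and mitosis 15 of 19 tested genes fell in wt and 10 of 19 in N2ΔMy mice and 0 rose, and the G1/S side held 3 falls and 2 rises in wt and 1 fall and 1 rise in N2ΔMy mice among 21.

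All 20 and all 12 calls kept their sign within either library series, which is no separate test, since the calls rest on the same libraries. The Ly6Clo and Ly6Chi libraries did not overlap for 19 of the 20 and for all 12, beside 91.2% and 91.7% of all genes called. Among all genes tested the libraries did not overlap for 35.4% in wt and 27.8% in N2ΔMy mice. Among the 25 tested genes that did not need the Ly6Chi IMQ libraries to pass the filter, 8 fell and 2 rose in wt mice, and 6 fell and 1 rose in N2ΔMy mice. Of these, 6 of 9 genes of G2 and mitosis fell in wt and 5 of 9 in N2ΔMy mice, and 2 of 16 and 1 of 16 G1/S genes. Of the other 15 genes, all 10 called in wt and all 5 called in N2ΔMy mice were also called in the fit with no filter. With no filter, 23 of the 53 genes were called in wt and 12 in N2ΔMy mice, beside 12.3% and 8.14% of all genes. The median difference over the 53 genes was -1.32 in wt and -0.54 in N2ΔMy mice, beside -0.066 and -0.012 over all genes. On the side of G2 and mitosis the medians were -2.59 and -1.38, and on the G1/S side -0.070 and 0.17. With the replicate block, 23 genes were called in wt mice, with Pole (adjusted p = 0.0161), Uhrf1 (0.0368) and Cdca8 (0.035) added, and 15 in N2ΔMy mice, with Ccne1 (0.0385), Cdc20 (0.0495) and Tpx2 (0.05) added. In that fit 15.0% of all genes fell and 13.4% rose in wt, and 10.2% fell and 10.3% rose in N2ΔMy mice.

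**Figure D4:**
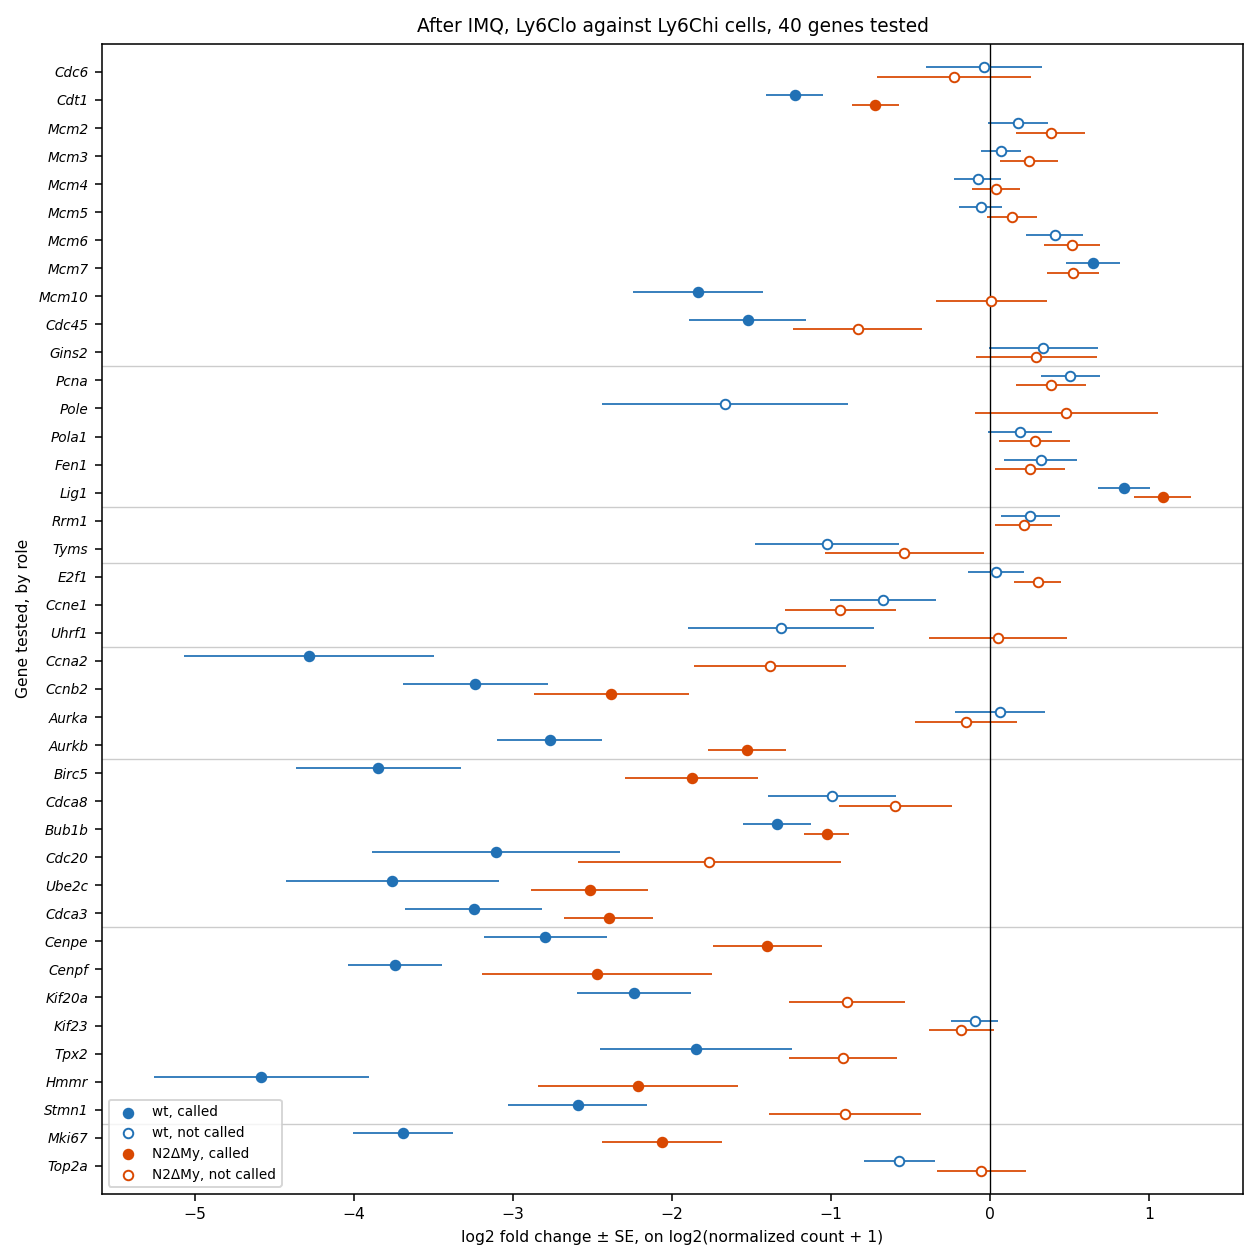
Difference between Ly6Clo and Ly6Chi cells after IMQ (log2 fold change ± SE on log2(normalized count + 1), 4 against 4 libraries) of the 40 genes tested, in wt (blue) and N2ΔMy mice (red), with filled points for genes called. Called genes from Ccna2 downward all lie left of 0, while Mcm7 (wt) and Lig1 (both genotypes) lie right of it.

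Cdt1, which leads the licensing genes here, read 150, 103, 165 and 168 in wt and 195, 224, 262 and 185 in N2ΔMy Ly6Clo cells, below all Ly6Chi libraries after IMQ. It fell by 1.23 ± 0.18 in wt (adjusted p = 0.000362) and by 0.72 ± 0.15 in N2ΔMy mice (adjusted p = 0.00456), the smallest called change there, with -1.40 in the first library series and -1.06 in the second in wt mice. Mcm10 and Cdc45, which help to activate the helicase, fell in wt mice by 1.84 ± 0.41 and 1.52 ± 0.37 and differed by 0.007 ± 0.35 and -0.83 ± 0.41 in N2ΔMy mice. No subunit of the MCM2-7 helicase was called lower in either genotype. Mcm7 read 356, 327, 291 and 272 in wt Ly6Clo and 237, 232, 163 and 170 in wt Ly6Chi cells and rose by 0.65 ± 0.17 without overlap (adjusted p = 0.0118), the smallest called change in wt mice. It dropped below the limit of 0.6 without Ly6Chi library 3 or 4 or Ly6Clo library 1 (0.55 to 0.58). In N2ΔMy mice Mcm7 read 251, 238, 251 and 259 in Ly6Clo and 191, 219, 149 and 147 in Ly6Chi cells, also without overlap, and its difference of 0.52 ± 0.16 (adjusted p = 0.0396) stayed below the limit. Mcm2 to Mcm6 differed by between -0.078 (Mcm4) and 0.40 (Mcm6) in wt and by between 0.038 and 0.52 in N2ΔMy mice.

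Lig1 was the only gene of the 40 called higher in Ly6Clo cells of both genotypes. It read 267, 239, 343 and 335 in wt and 257, 232, 292 and 290 in N2ΔMy Ly6Clo cells, above all 8 Ly6Chi libraries after IMQ. Lig1 rose by 0.84 ± 0.16 in wt (adjusted p = 0.00221) and by 1.08 ± 0.18 in N2ΔMy mice (adjusted p = 0.00121), with 0.52 in the first library series and 1.16 in the second in wt and 0.90 in the first library series and 1.26 in the second in N2ΔMy mice. Pcna differed by 0.50 ± 0.19 in wt (adjusted p = 0.0558) and 0.38 ± 0.22 in N2ΔMy mice (adjusted p = 0.233). Rrm1, Tyms, E2f1, Ccne1 and Uhrf1 were not called in either genotype, with differences in wt mice between -1.32 (Uhrf1) and 0.25 (Rrm1).

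Among the mitotic kinases Aurkb, the catalytic subunit of the chromosomal passenger complex, read 12, 35, 25 and 15 in wt and 44, 34, 36 and 60 in N2ΔMy Ly6Clo cells, and 136, 130, 148 and 157 in wt and 136, 138, 128 and 100 in N2ΔMy Ly6Chi cells after IMQ. Ly6Chi cells after Sham also read between 87 and 153, so that all 8 Ly6Clo libraries lay below all 16 Ly6Chi libraries. Aurkb fell by 2.77 ± 0.33, 6.83-fold, in wt (adjusted p = 8.42e-05) and by 1.53 ± 0.25, 2.89-fold, in N2ΔMy mice (adjusted p = 0.000976), with -2.63 in the first library series and -2.91 in the second in wt and -1.80 in the first library series and -1.26 in the second in N2ΔMy mice. Ccnb2 fell by 3.24 ± 0.46 in wt and 2.38 ± 0.49 in N2ΔMy mice. Ccna2 fell by 4.29 ± 0.79 in wt mice and differed by -1.38 ± 0.48 in N2ΔMy mice (adjusted p = 0.0557). Aurka was not called, with differences of 0.059 and -0.15.

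Cdca3 read 9, 6, 27 and 16 in wt and 19, 21, 18 and 20 in N2ΔMy Ly6Clo cells, and 141, 156, 85 and 141 in wt and 96, 94, 89 and 163 in N2ΔMy Ly6Chi cells after IMQ. The difference was -3.25 ± 0.43 in wt (adjusted p = 0.000181) and -2.40 ± 0.28 in N2ΔMy mice (adjusted p = 0.000106), with -4.16 in the first library series and -2.34 in the second in wt mice and no overlap in either genotype. Ube2c had the largest called fall in N2ΔMy mice, -2.52 ± 0.37 (adjusted p = 0.000528), and fell by 3.76 ± 0.67 in wt mice. Birc5 changed by -3.85 ± 0.52 and -1.88 ± 0.42, and Bub1b by -1.34 ± 0.21 and -1.03 ± 0.14 in wt and N2ΔMy mice. Cdca8 was not called in either genotype (adjusted p = 0.0781 and 0.253).

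Of the kinetochore and spindle genes, Cenpf read 15, 12, 12 and 15 in wt Ly6Clo and 284, 234, 125 and 164 in wt Ly6Chi cells. It fell by 3.74 ± 0.30, 13.4-fold, in wt mice (adjusted p = 5.21e-06), with -4.17 in the first library series and -3.32 in the second. In N2ΔMy mice it read 12, 5, 72 and 58 in Ly6Clo and 108, 217, 74 and 178 in Ly6Chi cells, where Ly6Clo libraries 3 and 4 lay far above libraries 1 and 2. The difference of -2.47 ± 0.72 in N2ΔMy mice (adjusted p = 0.0285) was -4.12 in the first library series and -0.82 in the second, and its call was lost without Ly6Chi library 2 or 4 or Ly6Clo library 1 or 2 (adjusted p up to 0.0791). Cenpe read 38, 14, 53 and 28 in wt and 28, 54, 66 and 103 in N2ΔMy Ly6Clo cells, below all Ly6Chi libraries after IMQ. It fell by 2.80 ± 0.39 in wt (adjusted p = 0.000238) and 1.40 ± 0.34 in N2ΔMy mice (adjusted p = 0.0118), with -2.08 in the first library series and -0.72 in the second in N2ΔMy mice. Hmmr fell in wt mice, with a difference of -4.58 ± 0.68 (adjusted p = 0.000381) and Ly6Clo libraries at 0, 2, 0 and 2. At the pseudocount of 1 this was the largest of the 40 genes in size, but with a pseudocount of 8 it was -2.46, and Mki67 (-3.62) and Cenpf (-3.23) came first. In N2ΔMy mice it fell by 2.22 ± 0.63 (adjusted p = 0.025), a call lost without Ly6Chi library 2, 3 or 4 or Ly6Clo library 1 (adjusted p up to 0.0923). Kif20a, Tpx2 and Stmn1 fell in wt mice, with differences of -2.24 ± 0.36, -1.85 ± 0.60 and -2.60 ± 0.43, and were not called in N2ΔMy mice (-0.90, -0.92 and -0.91).

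Mki67 fell by 3.69 ± 0.32, 12.9-fold, in wt (adjusted p = 8.42e-06) and by 2.06 ± 0.38, 4.18-fold, in N2ΔMy mice (adjusted p = 0.0022). The difference was -4.34 in the first library series and -3.05 in the second in wt mice and -3.02 in the first library series and -1.11 in the second in N2ΔMy mice. Top2a was not called in either genotype, with -0.57 ± 0.22 in wt (adjusted p = 0.0664) and -0.055 ± 0.28 in N2ΔMy mice (adjusted p = 0.912).

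The mean log2(normalized count + 1) of a library over the genes of each side condensed these differences into a pair of values per library. Over the 27 genes of G2 and mitosis it lay between 3.155 and 3.812 in the 8 Sham libraries, between 5.451 and 6.345 in Ly6Chi cells after IMQ, between 3.55 and 3.888 in wt Ly6Clo cells and between 3.99 and 4.93 in N2ΔMy Ly6Clo cells. Over the 26 G1/S genes it lay between 4.985 and 5.391 after Sham, between 6.002 and 6.418 in Ly6Chi cells after IMQ, and between 5.778 and 6.016 in wt and 5.842 and 6.615 in N2ΔMy Ly6Clo cells. For G2 and mitosis the wt Ly6Clo libraries overlapped with the Sham libraries and the N2ΔMy Ly6Clo libraries lay above them, and for G1/S all 8 Ly6Clo libraries lay above all 8 Sham libraries. The myeloid progenitor markers summed to between 4 and 109 in the 8 Ly6Clo libraries. The neutrophil markers summed to between 2032 and 3997, and both sums lay below all 8 Ly6Chi libraries after IMQ. Single markers went the other way. Kit read at most 1 in Ly6Chi cells after IMQ, but 45 in wt Ly6Clo library 3 and 93 and 44 in N2ΔMy Ly6Clo libraries 3 and 4. Of the 6 neutrophil markers tested, 3 were called lower in wt Ly6Clo cells and 0 higher. In N2ΔMy Ly6Clo cells 4 were called lower and 1 higher. The sums of the macrophage markers moved the other way. They lay between 2298 and 3106 in wt and between 3367 and 4293 in N2ΔMy Ly6Chi cells after IMQ. In Ly6Clo cells they lay between 3968 and 6163 and between 7945 and 12016. In wt mice most of the sum was Adgre1, which read 2141 to 2879 in Ly6Chi and 3876 to 5977 in Ly6Clo cells. Siglec1 went down in wt mice, from between 107 and 264 to between 0 and 29. Of the 7 macrophage markers tested, 2 were called higher and 1 lower in wt Ly6Clo cells. In N2ΔMy Ly6Clo cells 6 were called higher and 0 lower. The sums of dendritic cell markers overlapped in both genotypes. Of the 6 dendritic cell markers tested, Zbtb46 was called higher and Flt3 and Bst2 lower in wt Ly6Clo cells, and Zbtb46, Clec9a and Siglech were called higher in N2ΔMy Ly6Clo cells. The part of these cells in the difference was not tested.

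**Figure D5:**
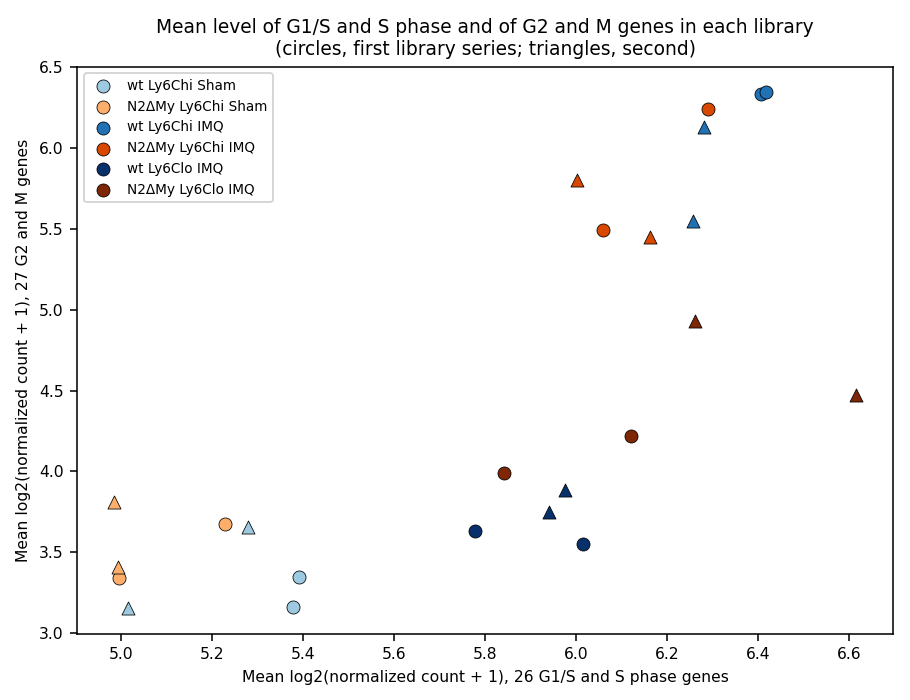
Mean log2(normalized count + 1) over the 26 G1/S genes (horizontal) and over the 27 genes of G2 and mitosis (vertical) in each of the 24 libraries, with circles for libraries 1 and 2 and triangles for libraries 3 and 4. Ly6Chi libraries after IMQ sit at the top right, Sham libraries at the bottom left, wt Ly6Clo libraries at the bottom between 5.778 and 6.016 on the horizontal axis, and N2ΔMy Ly6Clo libraries above them.

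Cells of N2ΔMy mice were compared with those of wt mice within each cell type and treatment. In Ly6Clo cells after IMQ, 0 of the 40 genes were called in limma, where 3.12% of all genes tested were higher and 1.67% lower in N2ΔMy mice. An unadjusted p under 0.05 was found for 8 of the 40 genes and for 19.5% of all genes tested. The 3 genes with the smallest p were Mcm10, Ccna2 and Cdt1. Mcm10 read 24, 16, 45 and 11 in wt and 45, 49, 84 and 59 in N2ΔMy Ly6Clo cells, with libraries that touched at 45, a difference of 1.41 ± 0.43 (adjusted p = 0.0884). Ccna2 read 2, 1, 0 and 10 in wt and 13, 7, 26 and 18 in N2ΔMy cells, with overlap, a difference of 2.44 ± 0.80 (adjusted p = 0.114). Cdt1 was higher in every N2ΔMy library, with a difference of 0.57 ± 0.20 (adjusted p = 0.138).

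When libraries of the same number formed a block, 3 of the 40 genes were higher in N2ΔMy Ly6Clo cells, Mcm10 (adjusted p = 0.0179), Ccna2 (0.039) and Mki67 (0.0111), and 0 were lower. In that fit 4.92% of all genes tested were higher and 3.45% lower, so that 3 of 40 is near the share over all genes. Mki67 differed by 1.24 ± 0.46, with 0.82 in the first library series and 1.65 in the second, and Mcm10 by 1.22 in the first library series and 1.60 in the second. Without wt Ly6Clo library 3, Uhrf1 and Mcm10 were called, and without wt Ly6Clo library 4 Ccna2 was called. The share of all genes called in these fits is not given here, so these calls are descriptions alone. With no filter, 0 of the 53 genes were called, beside 2.24% of all genes. The difference was above 0 for 40 of the 53 (75.5%, beside 49.4% of all genes). Its median was 0.31 beside 0.0 over all genes, 0.60 over G2 and mitosis genes and 0.093 over G1/S genes.

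Markers of other cell types differed between these Ly6Clo groups. The 8 macrophage markers, such as the complement genes C1qa, C1qb and C1qc, summed to between 3968 and 6163 in wt and between 7945 and 12016 in N2ΔMy libraries. The 8 dendritic cell markers summed to between 156 and 665 in wt and between 323 and 1895 in N2ΔMy libraries, and the highest sum of each group was in library 3, where Kit read 45 in wt and 93 in N2ΔMy mice. Without library 3 of both groups, the difference between the genotypes was 1.27 ± 0.46 for Mki67 (adjusted p = 0.203), 1.59 ± 0.39 for Mcm10 (adjusted p = 0.0611) and 1.67 ± 0.80 for Ccna2 (adjusted p = 0.352). The N2ΔMy libraries with the most Mki67, libraries 3 and 4 with 496 and 532, also had the highest and the second highest Flt3, 850 and 381, of the 8 Ly6Clo libraries. Of the 10 monocyte markers 1 was called higher and 4 lower in N2ΔMy Ly6Clo cells, and their sums lay between 159812 and 190559 in wt and between 110383 and 128972 in N2ΔMy libraries. Those called lower were Nr4a1, Ace, Spn and Itgal, all without overlap, and Ace read between 33443 and 39576 in wt and between 13531 and 18623 in N2ΔMy libraries. The marker called higher was Ccr2, a chemokine receptor of classical monocytes, which read between 241 and 991 in wt and between 4393 and 6281 in N2ΔMy Ly6Clo libraries, while Ly6c2 (12 to 92 and 46 to 382) overlapped. Of the neutrophil markers 2 of 6 tested were called higher in N2ΔMy libraries, among them Mmp9 (0 to 7 in wt, 16 to 131 in N2ΔMy mice), while the sums overlapped (2997 to 3997 and 2032 to 3042). The part of these cells in the genotype difference was not tested.

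In Ly6Chi cells after IMQ 0 genes were called in limma between the genotypes, where 0.0178% of all genes were higher and 0.0089% lower, and 2 of 40 had an unadjusted p under 0.05, beside 6.05% of all genes. The smallest p-values were those of Cdc20 (-1.20 ± 0.45, adjusted p = 0.73), Pole (-1.04 ± 0.42, adjusted p = 0.772) and Cenpe (-0.49 ± 0.24, adjusted p = 0.835), all lower in N2ΔMy mice. Cdc20 and Pole passed the filter through wt libraries alone (highest 59 and 55, beside 26 and 27 in N2ΔMy Ly6Chi cells after IMQ). Their direction is therefore not independent of the filter. In Ly6Chi cells after Sham 0 genes were called, where 0.0089% of all genes were higher and 0.0089% lower, and 2 of 40 had an unadjusted p under 0.05, beside 5.21% of all genes. Bub1b read 116, 122, 113 and 114 in wt and 145, 175, 139 and 168 in N2ΔMy cells, without overlap, a difference of 0.42 ± 0.15 (adjusted p = 0.921). Uhrf1 differed by -1.28 ± 0.47 and Cdca3 by 1.31 ± 0.61 (adjusted p = 0.921 and 0.925).

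Whether IMQ acted differently in the genotypes was tested as an interaction over the 16 Ly6Chi libraries. No gene was called (0 of 40 in limma, where 0.0% of all genes were called in either direction), and 3 of 40 had an unadjusted p under 0.05, beside 1.58% of all genes. These were Cdca3 (-1.56 ± 0.69), Cdc20 (-2.07 ± 0.92) and Hmmr (-2.21 ± 1.00), all with a smaller change in N2ΔMy mice and an adjusted p of 1.0. All 3 passed the filter through Ly6Chi libraries after IMQ alone, and Cdc20 and Hmmr through those of wt mice alone. Their count and direction are therefore not independent of the filter. Whether the difference between Ly6Clo and Ly6Chi cells depended on genotype was tested over the 16 libraries after IMQ. Again 0 genes were called in limma, where 0.971% of all genes were called with a more positive and 0.0623% with a more negative difference in N2ΔMy mice. An unadjusted p under 0.05 was found for 10 of the 40 and for 8.33% of all genes. Mcm10 (1.84 ± 0.56, adjusted p = 0.175), Birc5 (1.97 ± 0.63, adjusted p = 0.228) and Aurkb (1.24 ± 0.41, adjusted p = 0.241) had the smallest p-values. With the replicate block Mcm10 was called (adjusted p = 0.0122), where 2.15% of all genes were called with a more positive and 0.267% with a more negative difference, as it was without wt Ly6Clo library 3. In the reported fit, which has no block and all 16 libraries, the larger number of falls in wt than in N2ΔMy Ly6Clo cells was not shown to be a difference between the genotypes for any of the 40 genes.

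Other genes of the same pathway were counted from 3 further lists of 110 genes in all. Of 40 other S phase genes 29 were tested. After IMQ 5 rose in wt Ly6Chi cells (17.2%, beside 4.43% of all genes) and 1 in N2ΔMy cells (3.45%, beside 4.15%), among them Gmnn (geminin, the inhibitor of Cdt1), by 1.23 ± 0.24 and 1.17 ± 0.29. Rnaseh2b, a subunit of RNase H2, rose by 0.72 ± 0.19, and Prim2, the large primase subunit, by 0.77 ± 0.21 in wt cells. Between Ly6Clo and Ly6Chi cells 5 rose and 2 fell in wt mice (17.2% and 6.9%, beside 11.9% and 12.7% of all genes), and 4 rose and 3 fell in N2ΔMy mice (13.8% and 10.3%, beside 9.01% and 8.38%). These shares lie within a few genes of those over all genes. The rises in wt mice were led by Rnaseh2b (1.05 ± 0.15), Pold1 (1.02 ± 0.17, the catalytic subunit of polymerase delta) and Rpa1 (0.67 ± 0.12, which binds single-stranded DNA). In N2ΔMy mice Rfc2, a clamp loader subunit, and Tmpo, a protein of the nuclear lamina, changed by -0.83 ± 0.12 and -0.85 ± 0.12 and Rnaseh2b rose by 0.82 ± 0.16. Between the genotypes 0 were called in limma in Ly6Clo cells, with 5 of 29 at an unadjusted p under 0.05 (17.2%, beside 19.5% of all genes), and 1 of 29 was called higher with the replicate block, beside 4.92% of all genes.

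Of 40 other genes of G2 and mitosis 23 were tested. After IMQ 8 rose in Ly6Chi cells of each genotype (34.8%, beside 4.43% of all genes in wt and 4.15% in N2ΔMy mice) while 0 fell. With the replicate block 12 rose in wt and 8 in N2ΔMy mice, beside 5.82% and 4.76% of all genes. Anln (anillin of the cleavage furrow), Ncapd2 (a condensin subunit) and Kif22 (a chromosome kinesin) led in wt mice, with 1.57 ± 0.20, 2.50 ± 0.32 and 2.72 ± 0.37. Spc24, a subunit of the kinetochore NDC80 complex, led in N2ΔMy mice with 3.94 ± 0.53, followed by Ncapd2 with 1.75 ± 0.26 and Kif22 with 2.60 ± 0.39. Between Ly6Clo and Ly6Chi cells 11 fell and 5 rose in wt mice (47.8% and 21.7%, beside 12.7% and 11.9% of all genes), and 8 fell and 5 rose in N2ΔMy mice (34.8% and 21.7%, beside 8.38% and 9.01%). Racgap1, a regulator of cytokinesis, changed by -1.91 ± 0.18 and -1.51 ± 0.11 in wt and N2ΔMy mice, and Anln and the spindle kinesin Kif15 changed by -2.66 ± 0.25 and -1.99 ± 0.25 in wt mice. Ndc80 of the kinetochore and Tacc3 of the spindle were higher in Ly6Clo cells of N2ΔMy mice, by 2.42 ± 0.39 and 1.03 ± 0.18.

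Of the other genes of G2 and mitosis, 3 of 23 were higher and 0 lower in N2ΔMy than in wt Ly6Clo cells. Of all genes 3.12% were higher and 1.67% lower. With the replicate block 4 of the 23 were higher and 0 lower, beside 4.92% and 3.45% of all genes. Espl1 (separase) was higher by 2.06 ± 0.17 (adjusted p = 0.000101), with 1.98 in the first library series and 2.14 in the second. Its group means were 133 ± 29.7 in wt and 549 ± 44 (SD, n = 4) in N2ΔMy mice. Wee1, the kinase that holds back entry into mitosis, was higher by 2.95 ± 0.73 (adjusted p = 0.0377) and Kif22 by 2.12 ± 0.53 (adjusted p = 0.0413). Espl1 was also called in the interaction of genotype and cell type (1.72 ± 0.24, adjusted p = 0.00106), 1 of 23 genes beside 0.971% of all genes, and the replicate block gave 2 of 23 calls beside 2.15%.

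Of 30 G1 cyclins, kinases, inhibitors and pocket proteins 27 were tested, and the response of Ly6Chi cells to IMQ held 1 call, a fall of the antiproliferative gene Btg2 in wt mice (-0.61 ± 0.17, adjusted p = 0.0339), where 5.07% of all genes fell. Between Ly6Clo and Ly6Chi cells 6 rose and 3 fell in wt mice (22.2% and 11.1%, beside 11.9% and 12.7% of all genes), and 6 rose and 1 fell in N2ΔMy mice (22.2% and 3.7%, beside 9.01% and 8.38%). Ccnd2, a D-type cyclin, was higher in Ly6Clo cells by 5.82 ± 0.38 in wt and 7.07 ± 0.56 in N2ΔMy mice, from means of 10.5 ± 5 and 3.5 ± 3.42 in Ly6Chi to 671 ± 332 and 460.2 ± 48.2 (SD, n = 4) in Ly6Clo cells. The retinoblastoma gene Rb1, which restrains E2F, was higher by 1.57 ± 0.087 and 1.28 ± 0.12, and E2f2 was lower, with -0.85 ± 0.087 and -0.89 ± 0.10. Between the genotypes in Ly6Clo cells 2 of 27 were called (7.41% higher, beside 3.12% of all genes). Myc, a driver of growth and of cell cycle entry, was higher in N2ΔMy mice by 2.68 ± 0.53 (adjusted p = 0.0133) and Cdk6, the partner of D-type cyclins, by 0.67 ± 0.14 (adjusted p = 0.0168). Myc was also called in the interaction of genotype and cell type (3.11 ± 0.72, adjusted p = 0.0464), 1 of 27 beside 0.971% of all genes. With the replicate block 4 of the 27 were higher in N2ΔMy Ly6Clo cells (4.92% of all genes in that fit), and 1 of 27 fell after IMQ in N2ΔMy Ly6Chi cells, below the 5.13% of all genes.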

How the data were processed

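RNA of sorted blood monocytes was sequenced in 24 libraries of 6 groups, described by the submitters as biological replicates. According to the methods, the authors prepared stranded libraries of total RNA (SMARTer Pico kit), trimmed reads with Trim Galore (0.4.4), mapped them with STAR (2.5.3a) to GRCm38.p6 with a GENCODE annotation, and normalized with DESeq2. The counting tool is not given in the sources used here. The deposited values are a score, normalized counts rounded to whole numbers, so no count model was used. Columns that hold the authors' own comparison (fold changes and p-values) were not used.

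Values were taken as log2(value + 1). Genes with at least 50 in at least 1 of 24 libraries (11230) were fitted with limma (3.58.1, R 4.3.3, eBayes with trend) on the 8 libraries of each of 7 comparisons of 2 groups and on 16 libraries for each of 2 interactions, tested on simulated data first. On the log2(value + 1) scale a fold change understates the change of low genes. Calls needed a Benjamini-Hochberg value of 0.05 or less together with a difference of 0.6 or more. The members, role groups, pathway lists and marker lists were chosen with earlier results of these data known. Values in every library are given for Mki67, Top2a, Pcna and Ccnb2 and for the gene with the smallest p among those called in each role, and with 0 called the 3 smallest p-values are named. Deviations of same-numbered libraries from their group means correlated in every pair (r from 0.16 to 0.619 over the 7 comparisons). The reported fits hold no block, and a block on the label numbers was fitted as an alternative. Within a library series r ran from -0.116 to 0.263, so that most of the pairing is that of the series. Depth per library, inferred from the steps of low values (found to within 2.3% in 12 simulated libraries), ran from 9520348 to 19754712 reads. A read was worth between 0.73 and 1.409 normalized counts, and values of a few counts carry a large counting error. Motifs were searched in RefSeq windows (GRCm38.p6) with Python (3.11.15).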

Additional observations from a re-analysis of the deposited data

Results flagged for a closer look

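Of 150 sets of 4 libraries (25 genes in 6 groups), 10 held a library whose gap to the others passed Dixon's critical value for 4 samples, and chance gives about 1 in 20. In Ly6Chi cells after IMQ, Uhrf1 read 60 in wt library 1 (others 36 to 38) and 74 in N2ΔMy library 2 (others 26 to 29), and Mcm5 read 301 in that same N2ΔMy library (others 229 to 234). Cdca3 read 163 in N2ΔMy library 4 (others 89 to 96) and Rrm1 read 133 in wt library 3 (others 194 to 198). After Sham, Ccna2 read 5 in wt library 4 and 2 in N2ΔMy library 3 with the others at 0, and Ube2c read 28 in N2ΔMy library 4 (others 3 to 6). In Ly6Clo cells, Uhrf1 read 66 in wt library 3 (others 9 to 12), the wt Ly6Clo library with the highest dendritic cell marker sum, and Pcna read 397 in N2ΔMy library 1 (others 533 to 542).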

How the results depend on the processing

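Over 64 single gene results and 1206 alternative values, 1126 kept their direction and their side of the threshold, 80 fell short of it and 0 reversed. Of the 80, 10 and 19 came from the first or the second library series alone, where the fits rest on 2 libraries a group. Between IMQ and Sham, the second series alone called 13 of the 40 genes in wt and 13 in N2ΔMy Ly6Chi cells (5.27% and 7.24% of all genes), and the first 14 in N2ΔMy cells (7.41%). Leaving out 1 library gave 19 to 25 calls in wt and 17 to 21 in N2ΔMy cells. Counts with 1 library left out are given here and below without a share over all genes, and are descriptions alone. Between Ly6Clo and Ly6Chi cells, the second series alone called 13 in wt mice (18.2% of all genes), and leaving out 1 library gave 19 to 25 in wt and 11 to 13 in N2ΔMy mice. Between N2ΔMy and wt Ly6Clo cells, where the reported fit called 0, the replicate block called 3 of 40, the library series as a covariate 3, all 24 libraries in a single fit 4 and the second series alone 1, where the same fits called 8.36%, 7.39%, 6.6% and 1.6% of all genes, and leaving out 1 library called 0 to 2. In the interaction of genotype and cell type the replicate block called 1 (2.41% of all genes) and leaving out 1 library 0 to 1. Apart from the calls given beside the results, the replicate block changed no other call among the 53 genes. Leaving out the third library of both Ly6Clo groups was chosen after the data were seen, and its counts of 0, like those of the reported fit, show nothing about these libraries. The cause of these changes was not tested. Of the 53 genes 13 stayed below the filter, and at this depth differences of a few counts were not detectable.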
